A study of Mus musculus with 16 samples.

Results

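Transcripts of 10 core genes of the Notch signalling pathway were followed across 4 groups of 6DT1 cells, a line of mouse mammary cancer cells (strain FVB/N1, per the labels). The genes are the receptors Notch1, Notch2, Notch3 and Notch4, the ligands Jag1, Jag2, Dll1 and Dll4, and the targets Hes1 and Hey1. They were chosen by name, and each has a row among the 25745 genes of the deposited count table. The groups were empty-vector cells given 1 µM hydrogen peroxide (H2O2), empty-vector cells left untreated, lentivirus cells given 1 µM H2O2, and lentivirus cells left untreated, with RNA taken after 24 h and 4 libraries per group. The lentivirus was made to express CLIC4, a protein of the chloride intracellular channel family, and the empty vector carried no such insert. Per the series text both vectors were lentiviral. The labels do not settle the genotype, because the sample descriptions name empty-vector cells a CLIC4 knockout and lentivirus cells wild type, and the series text mentions vectors alone. The labels say neither whether the cells were a pool or 1 clone, nor whether each library had a culture of its own. The p-values therefore measure the spread between these libraries, which may be technical. The series title names mitochondrial function and resistance to oxidants.

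Notch receptors are single-pass membrane proteins that are activated by ligands on a neighbouring cell. Binding lets a metalloprotease and then the gamma-secretase complex cut the receptor, and the freed intracellular domain joins the DNA-binding protein Rbpj and a Mastermind-like coactivator in the nucleus. The best known targets are the Hes and Hey genes, which encode basic helix-loop-helix repressors. In the mammary gland the pathway is known for its part in luminal cell fate. In endothelium Dll4, Notch1 and Notch4 are known for their part in vessel branching.

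Total counts lay between 47.1 M and 61.9 M per library. Library 11, from untreated empty-vector cells, was unlike the rest. Its log2 CPM (counts scaled to library size) correlated with those of the other libraries of its group at 0.926 at most, while every other pair within a group reached at least 0.998. Its TMM scaling factor, edgeR's correction for library composition, was 0.721, against 0.986 to 1.04 in the other libraries. Clic4, the gene the vectors differ in, had 39.5 to 45.1 TMM-scaled CPM in treated and 41.2 to 44.7 in untreated empty-vector libraries apart from library 11, which had 138. In lentivirus libraries it had 230.3 to 258 CPM when treated and 222 to 244 when untreated. Keratin genes of luminal epithelium such as Krt8 were high in every library, whereas Epcam, Cdh1, Cldn3 and Cldn4 were under 1 CPM in every library apart from library 11. Results on the 10 genes are therefore given from the fit of 16 libraries and mostly again without library 11. For other genes many values are from the fit of 16 libraries alone.

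Promoter stretches are shown for the pair of members that were higher with the empty vector in both fits and both treatments, Dll4 and Notch4, and for Jag1, whose call rested on library 11. They run from 250 bases before to 10 bases after the start site, 5′ to 3′ on the gene's strand, from RefSeq on GRCm38.p6. Capitals mark matches to the motifs named after them.

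Dll4 (chr2:119325534-119325793, plus strand): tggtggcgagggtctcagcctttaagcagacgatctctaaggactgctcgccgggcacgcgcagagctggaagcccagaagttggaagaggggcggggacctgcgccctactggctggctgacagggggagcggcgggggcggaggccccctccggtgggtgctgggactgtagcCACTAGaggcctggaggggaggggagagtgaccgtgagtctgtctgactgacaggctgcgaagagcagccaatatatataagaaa
Notch4 (chr17:34564045-34564304, plus strand): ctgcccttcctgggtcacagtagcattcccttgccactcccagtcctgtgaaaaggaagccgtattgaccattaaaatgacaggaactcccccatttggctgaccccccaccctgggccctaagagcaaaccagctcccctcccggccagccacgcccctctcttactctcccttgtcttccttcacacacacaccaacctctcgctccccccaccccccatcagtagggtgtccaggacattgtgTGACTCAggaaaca
Jag1 (chr2:137116511-137116770, minus strand): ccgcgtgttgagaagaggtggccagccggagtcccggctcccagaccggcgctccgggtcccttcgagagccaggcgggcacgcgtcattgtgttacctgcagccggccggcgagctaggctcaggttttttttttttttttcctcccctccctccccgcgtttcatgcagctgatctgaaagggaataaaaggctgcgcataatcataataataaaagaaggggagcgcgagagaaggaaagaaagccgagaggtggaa

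The capitals in Dll4 are CACTAG, a match to the N box CACNAG that Hes repressors bind, starting 75 bases before the start site. Those in Notch4 are TGACTCA, a match to the AP-1 motif TGANTCA, starting 4 bases before it. Windows from 250 bases before to 50 after the start site were found for 8 of the 10 members, with 9 windows since Dll1 has 2. Both strands were searched. The targets Hes1 and Hey1 had no window, so their promoters were not searched. The N box was in the windows of Notch1, Notch2, Notch3, Dll4 and 1 of the 2 of Dll1, and in 42.5% of all 32851 windows of this length. In Notch1, 2 of the 3 matches overlap. The AP-1 motif was in the windows of Notch4 and 1 of the 2 of Dll1, and in 7.81% of all windows. The letters TGGGAA, the core that Rbpj binds, were in 0 of the 9 windows, all of receptors and ligands, and in 25.6% of all windows. These matches describe the letters and not binding.

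Per transcript length, Jag2 was the most abundant member. On the deposited FPKM scale (fragments scaled to transcript length and library size) it had 27.6 ± 2.32 over the 15 libraries without library 11, with a range of 23.4 to 32.0 (SD, n = 15). Hes1 (12.1 ± 2.69), Notch2 (11.8 ± 1.44) and Notch1 (8.31 ± 1.28 FPKM) followed, and their ranges overlapped in this order. The order pools both vectors, and these SDs include the difference between them. In treated empty-vector libraries Notch2 (mean 11.7 FPKM) was above Hes1 (9.34). In treated lentivirus libraries Hes1 (14.7) was above Notch2 (11.8). Jag1 stood at 2.78 ± 0.164 FPKM, below every value of Notch1 and above every value of Dll1. Dll1 (0.46 ± 0.128), Dll4 (0.329 ± 0.263) and Notch4 (0.239 ± 0.140) came next, each overlapping its neighbour. Here too the order differed by vector. Dll4 averaged 0.62 and Dll1 0.33 FPKM in treated empty-vector libraries, against 0.105 and 0.555 FPKM in treated lentivirus libraries. Notch3 (0.018 ± 0.0218) and Hey1 (0.00733 ± 0.0122 FPKM) were at the edge of detection. The cells thus held transcripts of a pair of receptors, 1 ligand and 1 target at 8.31 FPKM or more on average, and less of the others. In library 11 Jag1 had 23.2 and Jag2 10.7 FPKM, so that the order of the ligands was the opposite there.

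**Figure D1:**
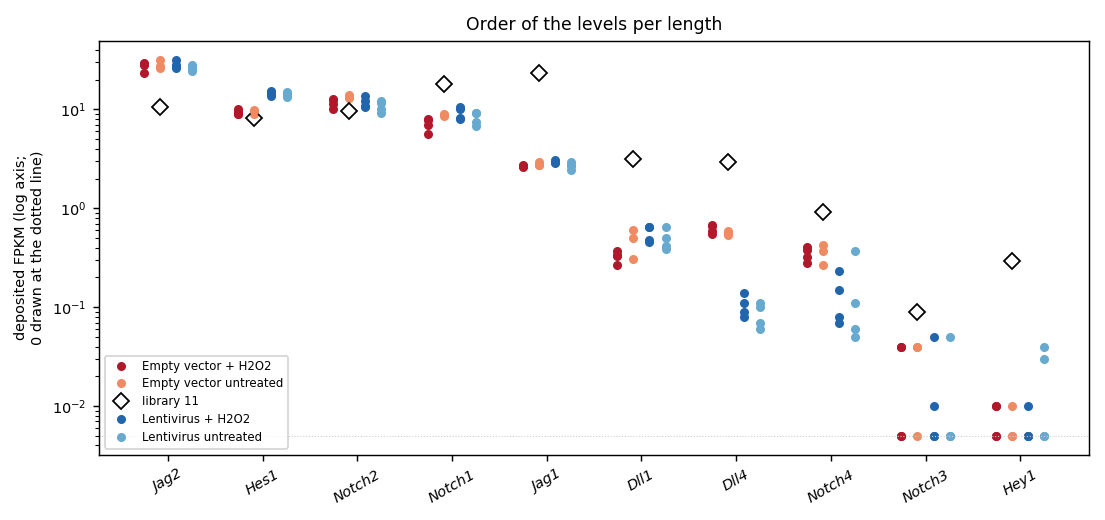
Deposited FPKM (log axis, 0 drawn at the dotted line) of the 10 genes in order of their mean without library 11. Each point is a library, coloured by group, and open diamonds are library 11. Jag2 averaged 27.6 FPKM and Hey1 0.00733, and library 11 lay above all other libraries for Notch1, Jag1, Dll1, Dll4, Notch4, Notch3 and Hey1 and below all others for Jag2 and Hes1.

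The first comparison asks how the vectors differ in untreated cells. With 16 libraries, edgeR called 4 of the 8 members that passed its filter on low counts higher (Notch2, Notch4, Jag1 and Dll4) and 1 lower (Hes1), at a Benjamini-Hochberg adjusted p under 0.05 over all genes tested. Over all 14445 genes tested, 29% were higher and 24.3% lower. Without library 11, 3 members were higher (Notch2, Notch4 and Dll4) and 2 lower (Dll1 and Hes1), beside 37% higher and 37.3% lower of the 14602 genes then tested. With 53.3% and 74.4% of all genes called in either direction, the share of members called, 62.5% in both fits, stood near that of all genes. The median log2 change of the 8 members was 0.72, and 0.03 without library 11, beside medians of all genes of 0.03 and -0.02. Notch3 and Hey1 did not pass the filter.

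Notch4 is a receptor best known from endothelium (chromosome 17, 34564268 to 34588503 on mm10). In untreated cells it had 1.69, 1.88, 1.61 and 1.25 TMM-scaled CPM in empty-vector libraries 9 to 12, against 0.375, 0.327, 0.389 and 0.194 CPM in lentivirus libraries 1 to 4. Every empty-vector library lay above every lentivirus library, and library 11 was in the middle of its group. Notch4 was 4.94-fold higher with the empty vector, a log2 change of 2.31 with its standard error (SE) at 0.22 (edgeR adjusted p = 9.18e-07), and 2.30 without library 11 (edgeR adjusted p = 1.19e-08). These levels rest on 62 to 111 counts per library with the empty vector and 9 to 22 with the lentivirus. The deposited FPKM of Notch4 does not follow its counts, since 62 counts gave 0.92 FPKM in library 11 and 67 counts 0.37 in library 12, while 22 counts gave 0.37 FPKM in library 3 and 19 counts 0.05 in library 2.

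Notch2, the most abundant receptor per length, differed little. It had 129, 133, 137 and 139 CPM in untreated empty-vector libraries 9 to 12, against 92.5, 126, 102 and 120.2 CPM in lentivirus libraries 1 to 4. On this TMM-scaled CPM the groups did not overlap, and the lentivirus libraries spread more widely. On FPKM library 11 had 9.59, within the range of the untreated lentivirus libraries (9.16 to 12.26). The log2 change was 0.29 (SE 0.10; edgeR adjusted p = 0.0314), and 0.28 without library 11 (edgeR adjusted p = 0.0409). The call ended without library 1, 3 or 12 (edgeR adjusted p = 0.102, 0.0857 and 0.0618) and with no filter (0.0612).

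Notch1 had 78.4, 76.5, 226 and 80.7 CPM in untreated empty-vector libraries 9 to 12, against 62.6, 85.5, 68.9 and 86.6 CPM in lentivirus libraries 1 to 4. Apart from library 11 the values of the groups overlapped. The log2 change of 0.61 was not called (SE 0.30, edgeR adjusted p = 0.098), and without library 11 it was 0.05 (SE 0.14). Leaving out library 10 in place of library 11 brought a call (0.76, edgeR adjusted p = 0.0473). Notch3 held 14 counts over the 4 empty-vector libraries, 5 of them in library 11, against 3 counts over the 4 lentivirus libraries. The ratio of 4.87 had a 95% counting interval of 1.36 to 26.4, and without library 11 the ratio was 3.84 with an interval of 0.959 to 22.1.

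Among the ligands, Dll4 showed the widest gap (chromosome 2, 119325784 to 119335962 on mm10). In untreated cells it had 1.91, 1.84, 14.5 and 2.01 CPM in empty-vector libraries 9 to 12, against 0.232, 0.189, 0.336 and 0.258 CPM in lentivirus libraries 1 to 4. Every empty-vector library was above every lentivirus library, with library 11 far above its own group. The log2 change was 4.30 (SE 0.67; edgeR adjusted p = 9.98e-05), or 19.6-fold. Without library 11 it was 2.91 (SE 0.21; edgeR adjusted p = 1.94e-10), or 7.52-fold.

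Jag1 (chromosome 2, 137081456 to 137116644 on mm10) had 14.2, 14.3, 159.5 and 14.8 CPM in untreated empty-vector libraries 9 to 12, against 14.5, 14.4, 15.3 and 13.2 CPM in lentivirus libraries 1 to 4. Apart from library 11, the values of both vectors lay within 13.2 and 15.3 CPM. The call with 16 libraries (log2 change 1.82, SE 0.65, edgeR adjusted p = 0.0289) rested on that library. Without it the log2 change was 0.01 with a 95% interval of -0.09 to 0.11, taken from the standard error (edgeR adjusted p = 0.868). The call also ended when any of libraries 1 to 4 was left out, at edgeR adjusted p = 0.0599, 0.0605, 0.0566 and 0.0647.

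Dll1 changed its direction with library 11. It had 0.688, 0.744, 7.80 and 1.04 CPM in untreated empty-vector libraries 9 to 12, against 1.54, 1.20, 1.40 and 1.51 CPM in lentivirus libraries 1 to 4. Libraries 9, 10 and 12 lay below all 4 lentivirus libraries and library 11 above them. With 16 libraries the log2 change was 0.84 (SE 0.62), which was not called (edgeR adjusted p = 0.262). Without library 11 Dll1 was lower by a log2 change of -0.77 (SE 0.21; edgeR adjusted p = 0.00238).

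Jag2 had 71.9, 76.4, 35.4 and 78.0 CPM in untreated empty-vector libraries 9 to 12, against 71.8, 77.7, 74.1 and 74.7 CPM in lentivirus libraries 1 to 4. It was not called in either fit, with log2 changes of -0.19 and, without library 11, 0.02 with a 95% interval of -0.09 to 0.12. Library 11, with the lowest Jag2 level of all 16 libraries, was also the library with the highest Jag1.

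Hes1, the one target among the members that passed the filter, was lower with the empty vector (chromosome 16, 30064384 to 30067796 on mm10). In untreated cells it had 10.4, 11.1, 13.8 and 11.4 CPM in empty-vector libraries 9 to 12, against 18.3, 17.5, 18.2 and 16.7 CPM in lentivirus libraries 1 to 4. The groups did not overlap, and on this TMM-scaled CPM library 11 was the nearest to the lentivirus libraries, while on plain CPM and FPKM it was below the mean of its group. The log2 change was -0.60 (SE 0.09; edgeR adjusted p = 6.64e-05). Without library 11 it was -0.69 (SE 0.06; edgeR adjusted p = 2.42e-09), or 0.621 times the lentivirus level. Hey1, which encodes a related repressor, had 0, 1, 34 and 0 counts in empty-vector libraries 9 to 12, against 0, 1, 0 and 1 counts in lentivirus libraries 1 to 4.

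**Figure D2:**
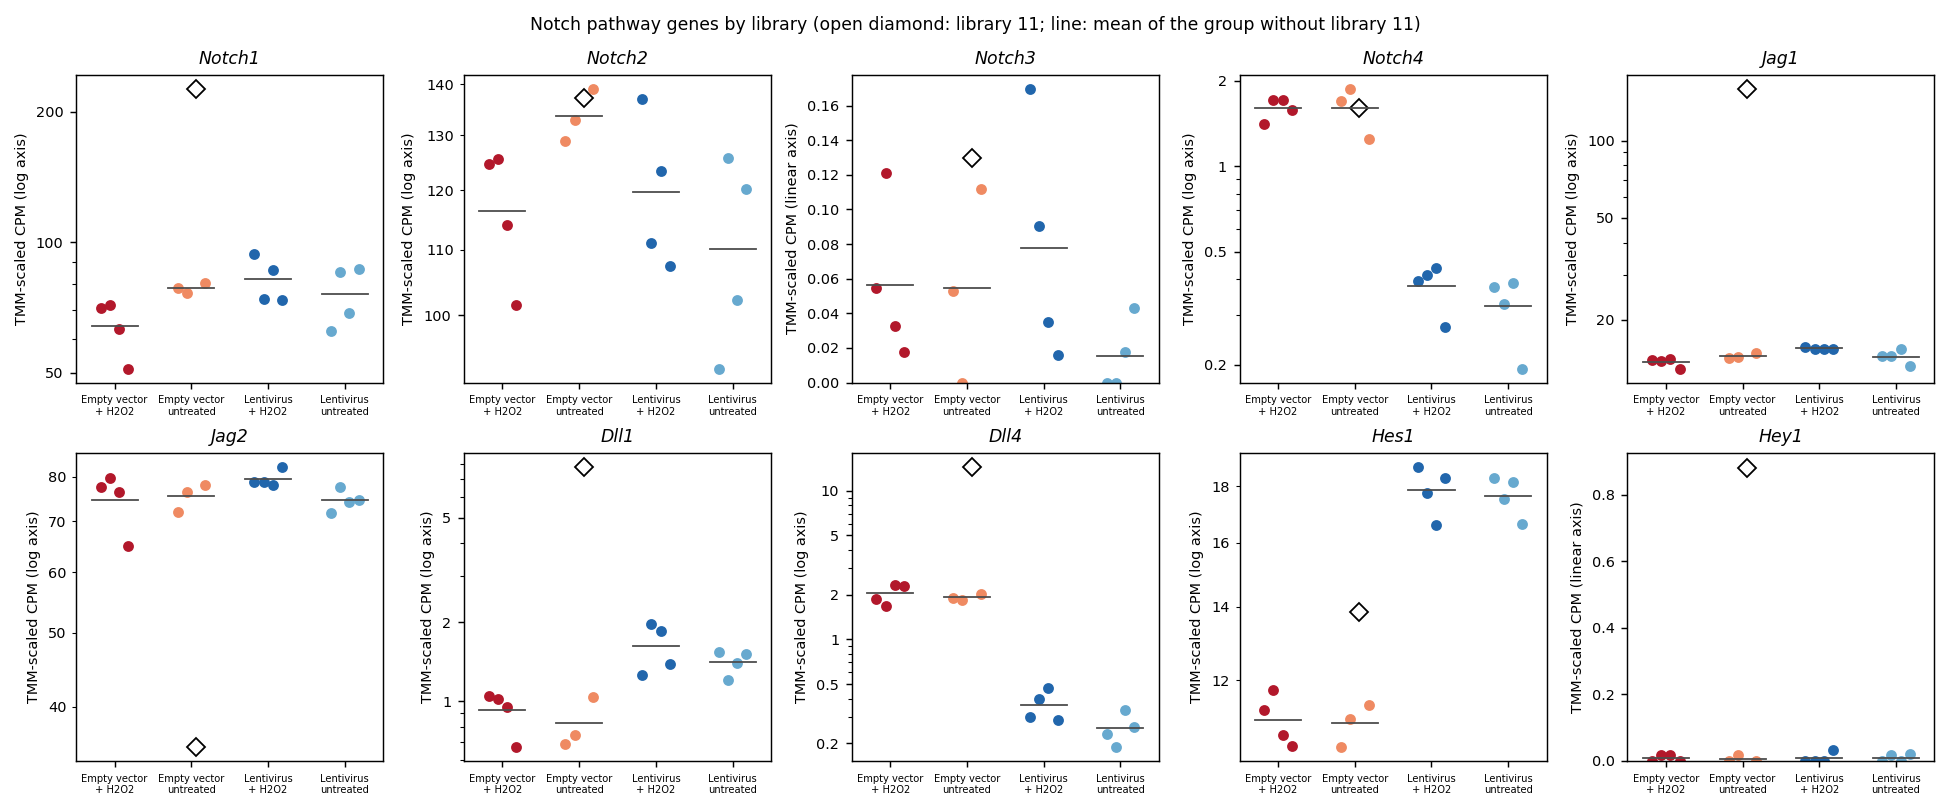
TMM-scaled CPM of each of the 10 genes in the 16 libraries. Axes are logarithmic except for Notch3 and Hey1, points are libraries, open diamonds are library 11, and lines are group means without library 11. Notch4 and Dll4 are higher and Hes1 lower in all empty-vector libraries, and library 11 departs from its group for Notch1, Jag1, Jag2, Dll1, Dll4 and Hey1.

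On TMM-scaled CPM, groups did not overlap for 4 of the 8 members tested in untreated cells, with Notch2, Notch4 and Dll4 above and Hes1 below. This compares with 49.6% of all 14445 tested genes. Without library 11 Dll1 was below too, for 5 of 8, beside 72.1% of all tested genes.

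The same question in cells given H2O2 involves other libraries. Of the 8 members tested, 2 were higher with the empty vector (Notch4 and Dll4) and 1 lower (Hes1) in the fit of 16 libraries, beside 22.1% higher and 20% lower of all genes tested. Library 11 enters this comparison through the spread that the groups share, and in the fit without it Notch1, Jag1 and Dll1 were lower as well. That made 2 higher and 4 lower, beside 36.6% higher and 37.2% lower. In either direction 37.5% of the members tested were called with 16 libraries and 75% without library 11, beside 42.1% and 73.8% of all genes. The median log2 change of the 8 members was -0.13 in both fits, beside -0.01 for all genes.

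Dll4 had 1.87, 1.67, 2.33 and 2.30 CPM in treated empty-vector libraries 13 to 16, against 0.301, 0.397, 0.473 and 0.286 CPM in treated lentivirus libraries 5 to 8. The lowest empty-vector library was more than 3 times the highest lentivirus library. The log2 change was 2.48 (SE 0.62, edgeR adjusted p = 0.00484), and 2.48 without library 11 (SE 0.19, edgeR adjusted p = 8.14e-11).

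Notch4 had 1.41, 1.71, 1.71 and 1.57 CPM in treated empty-vector libraries 13 to 16, against 0.395, 0.415, 0.438 and 0.271 CPM in treated lentivirus libraries 5 to 8. The groups stood apart as in untreated cells, with a log2 change of 2.07 (SE 0.22, edgeR adjusted p = 2.35e-06). Without library 11 the log2 change was 2.08.

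Hes1 had 11.3, 11.8, 10.7 and 10.5 CPM in treated empty-vector libraries 13 to 16, against 18.7, 17.7, 16.6 and 18.3 CPM in treated lentivirus libraries 5 to 8. All 4 empty-vector libraries were lower, by a log2 change of -0.69 in both fits (SE 0.09 with 16 libraries, edgeR adjusted p = 1.74e-05).

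Dll1 had 1.05, 1.02, 0.953 and 0.671 CPM in treated empty-vector libraries 13 to 16, against 1.26, 1.97, 1.86 and 1.38 CPM in treated lentivirus libraries 5 to 8. All empty-vector values were the lower ones. The log2 change was -0.81 in both fits. It was not called with 16 libraries (SE 0.63, edgeR adjusted p = 0.336) and was called without library 11 (SE 0.18, edgeR adjusted p = 5.86e-04).

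Jag1 had 14.0, 13.8, 14.1 and 12.9 CPM in treated empty-vector libraries 13 to 16, against 15.6, 15.5, 15.4 and 15.3 CPM in treated lentivirus libraries 5 to 8. The gap was small and the groups did not overlap. The log2 change of -0.17 was not called with 16 libraries (edgeR adjusted p = 0.857) and was called without library 11 (SE 0.05, edgeR adjusted p = 0.00349).

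Notch1 had 70.7, 71.9, 63.1 and 51.2 CPM in treated empty-vector libraries 13 to 16, against 94.3, 74.1, 86.4 and 73.8 CPM in treated lentivirus libraries 5 to 8. All empty-vector values were the lower ones. The log2 change of -0.35 was not called with 16 libraries (edgeR adjusted p = 0.372) and was called without library 11 (SE 0.13, edgeR adjusted p = 0.0286). Notch2, with 125, 126, 114 and 101 CPM in treated empty-vector libraries against 137, 111, 123 and 107 CPM in treated lentivirus libraries, overlapped and was not called (log2 change -0.04 in both fits). Jag2, with 77.5, 79.8, 76.5 and 65.0 CPM in treated empty-vector libraries against 78.8, 78.9, 78.1 and 82.5 CPM in treated lentivirus libraries, was not called either (-0.09 in both fits). Notch3 held 13 counts over the treated empty-vector libraries and 17 over the treated lentivirus libraries, and Hey1 2 in each. In treated cells the groups did not overlap for 6 of the 8 members tested, beside 69.4% of all tested genes.

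**Figure D3:**
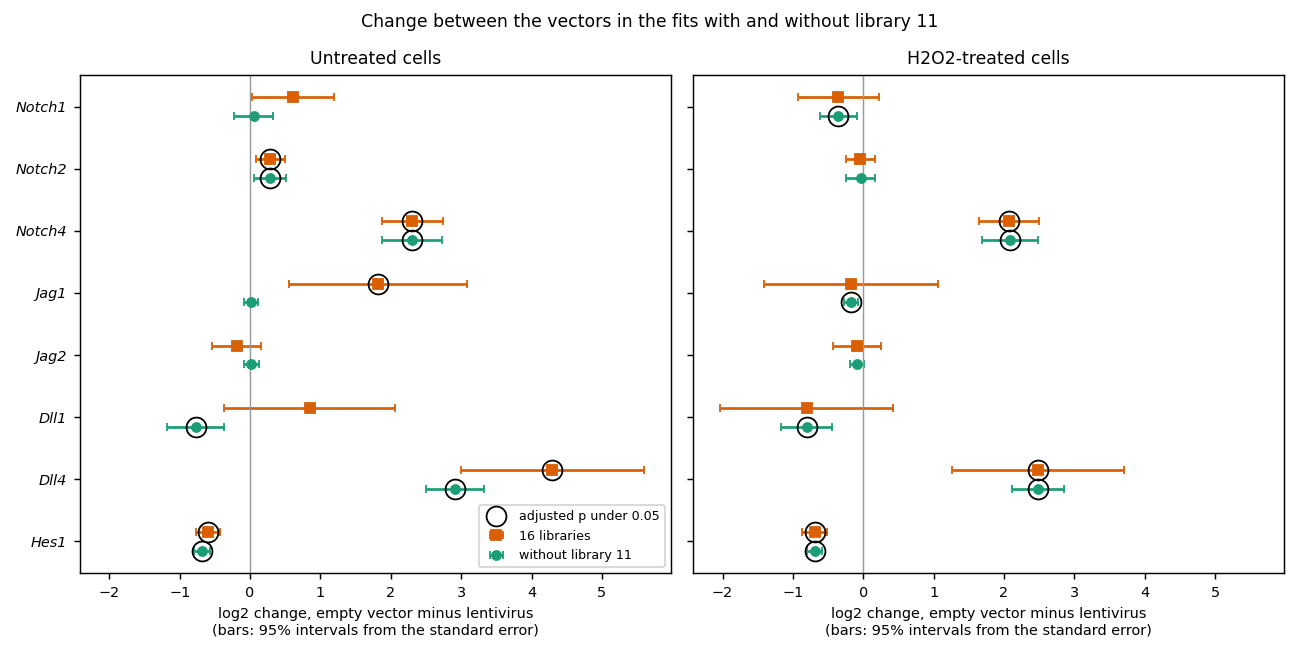
Log2 change between the vectors (empty vector minus lentivirus) for the 8 genes tested, in untreated cells (left) and H2O2-treated cells (right). Squares are the fit of 16 libraries and circles the fit without library 11, bars are 95% intervals from the standard error, and rings mark an adjusted p under 0.05. Notch4, Dll4 and Hes1 are called in both fits and both panels, while Jag1 moves between 1.82 and 0.01 and Dll1 between 0.84 and -0.77 in untreated cells.

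These are levels in bulk RNA, in which fewer cells of a type and less RNA per cell cannot be told apart. Dll4 and Notch4 are known from endothelium, so 5 measured endothelial markers are set beside them. Their summed level was 5.03 to 5.77 CPM in treated and 4.95 to 5.93 CPM in untreated empty-vector libraries (9.43 in library 11), against 86.2 to 90.1 CPM in treated and 83.6 to 88.4 CPM in untreated lentivirus libraries. The sum was thus higher in the lentivirus libraries, where Dll4 and Notch4 were lower. Cdh5, VE-cadherin, made up most of it, with a log2 change of -4.44 in untreated and -4.54 in treated cells (empty vector minus lentivirus, 16 libraries). Pecam1, Kdr and Tek were under 1 CPM in every library apart from library 11, and Tek was at 0 in the 4 treated empty-vector libraries. The 7 measured luminal markers, which include Krt8, summed to 921 to 1029 CPM in treated and 939.8 to 979 CPM in untreated empty-vector libraries (1399 in library 11), against 580.3 to 609 CPM in treated and 565 to 618 CPM in untreated lentivirus libraries. The 5 measured immune markers, of which 3 were under 1 CPM in every empty-vector library apart from library 11, summed to 228 to 258 CPM in treated and 223 to 252 CPM in untreated empty-vector libraries (385 in library 11), against 80.9 to 92.6 CPM and 77.6 to 82.9 CPM in treated and untreated lentivirus libraries. Cd68 made up nearly all of that sum, with a mean of 239 CPM in treated empty-vector libraries against 87.5 CPM in treated lentivirus libraries, and Ptprc, the defining immune marker CD45, had 0 counts in every empty-vector library. The immune markers tested were 2, and both were called higher with the empty vector in both comparisons and both fits. Their median log2 change was 3.70 in untreated and 4.66 in treated cells with 16 libraries.

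The 6 basal markers summed to 0.247 to 0.449 CPM in treated and 0.260 to 0.372 CPM in untreated empty-vector libraries (1.94 in library 11), against 4.46 to 4.95 CPM in treated and 3.97 to 5.08 CPM in untreated lentivirus libraries. Trp63, the basal marker that passed the filter, was lower with the empty vector (log2 change -4.80 in treated and -3.42 in untreated cells, and -4.61 in untreated cells without library 11). The 7 fibroblast markers summed to 17.3 to 20.5 CPM in treated and 18.8 to 19.7 CPM in untreated empty-vector libraries (22.1 in library 11), against 15.4 to 18.2 CPM in treated and 13.7 to 15.0 CPM in untreated lentivirus libraries. In both comparisons and both fits edgeR called the 5 of them that were tested, with Pdgfra and Col1a2 higher and Dcn, Lum and Col1a1 lower with the empty vector. The part of these marker lists in the differences of the Notch genes was not tested.

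H2O2 gave no member a call. In empty-vector cells, in lentivirus cells and in the difference between these responses, edgeR called 0 of the 8 members tested in either fit, beside 0% of all genes with 16 libraries. Without library 11 it called 0.24% of all genes in empty-vector cells (0.123% higher and 0.116% lower), 0% in lentivirus cells and 0.192% for the difference (0.0685% higher and 0.123% lower). At an unadjusted p under 0.05 edgeR had 2120, 255 and 859 genes with 16 libraries and 1994, 2135 and 2391 without library 11. With 16 libraries DESeq2 called 58, 1 and 17 genes and limma voom with library quality weights 98, 24 and 21. With the compared groups alone edgeR called 0 genes in empty-vector cells, but 20 higher and 101 lower in lentivirus cells. Those alternatives called 0 members too, although DESeq2 gave no adjusted p for Jag1, Dll1 and Dll4, nor for Notch4 and Hes1 in the difference between the responses.

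In empty-vector cells the log2 changes with H2O2 depended on library 11, which is untreated. With 16 libraries they were -1.89 for Jag1, -1.45 for Dll1, -1.30 for Dll4 and -0.85 for Notch1, each with an edgeR adjusted p = 0.339. Without library 11 they were -0.08 for Jag1, 0.17 for Dll1, 0.09 for Dll4 and -0.29 for Notch1. Notch1 in treated libraries 13 to 16 (51.2 to 71.9 CPM) was below every untreated one (76.5 to 80.7 without library 11), as were Notch2 (101 to 126 CPM treated, 129 to 139 CPM untreated) and Jag1 (12.9 to 14.1 CPM treated, 14.2 to 14.8 without library 11). On TMM-scaled CPM this made 3 of the 8 members tested whose groups did not overlap, beside 6.93% of all tested genes, and 12.8% without library 11. In all 3, library 16 was the lowest. On FPKM library 11 had 9.59 for Notch2, below every treated empty-vector library (10.2 to 12.7), so with library 11 those groups overlapped.

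Without library 11 the log2 change of Hes1 with H2O2 in empty-vector cells was 0.01 with a 95% interval of -0.11 to 0.13, and that of Notch4 was -0.01 with an interval of -0.37 to 0.36. For Notch1 it was -0.29 with an interval of -0.57 to -0.01, and for Dll1 0.17 with an interval of -0.25 to 0.59. The Notch1 interval excluded 0, while edgeR's unadjusted p was 0.0629 (edgeR adjusted p = 0.401). The intervals here take a normal quantile times the standard error. They are narrower than edgeR's F test implies.

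In lentivirus cells H2O2 gave log2 changes between 0.02 (Hes1) and 0.52 (Dll4) in the 8 members tested, none called (edgeR adjusted p = 1 for each with 16 libraries). Dll4 had 0.301, 0.397, 0.473 and 0.286 CPM in treated libraries 5 to 8, against 0.232, 0.189, 0.336 and 0.258 CPM in untreated libraries 1 to 4, and these values overlapped. The 95% interval of its log2 change without library 11 was 0.03 to 1.00. This normal-quantile interval excluded 0, while edgeR's unadjusted p was 0.0513 (edgeR adjusted p = 0.344). Jag2 in treated libraries (78.1 to 82.5 CPM) was above every untreated one (71.8 to 77.7 CPM), the only member whose groups did not overlap, beside 11.2% of all tested genes. Its log2 change was 0.09 with an interval of -0.00 to 0.19 without library 11.

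The difference between the responses, empty-vector minus lentivirus, was largest in size for Jag1 with 16 libraries, at -1.99 (SE 0.90, edgeR adjusted p = 0.658). Without library 11 it was -0.18 (SE 0.07, edgeR adjusted p = 0.211). For Notch1 it was -0.96 with 16 libraries and -0.41 without library 11 (95% interval -0.78 to -0.03), and for Notch2 -0.33 and -0.32 (-0.62 to -0.01). These normal-quantile intervals excluded 0, while edgeR's unadjusted p without library 11 was 0.0582 for Notch1 and 0.0627 for Notch2. For Hes1 the difference was -0.10 and, without library 11, -0.00 with an interval of -0.16 to 0.15.

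Library 11 differed from libraries 9, 10 and 12 unequally across the pathway. Jag1 was 11.0 times their mean, Dll1 9.46 times, Dll4 7.55 times and Notch1 2.88 times, while Jag2 was at 0.470 times. Notch2 (1.03 times), Notch4 (1.00) and Hes1 (1.26) were close to the mean of the other libraries. Hey1 had 34 counts in library 11 and 1 count over the other libraries of its group, a ratio of 149 with a 95% counting interval of 25.0 to 6068, and no library outside it had more than 2 counts. Over all genes tested, 17.9% were higher in library 11 by 2-fold or more and 25.7% lower by as much. The size of these ratios depends on the scaling, because the TMM factor of 0.721 raises all CPM of library 11. On plain CPM the log2 ratio of Notch2 was -0.48, of Notch4 -0.52 and of Hes1 -0.19, in place of 0.04, 0.00 and 0.34. Those of Jag1 (2.94), Dll1 (2.72), Dll4 (2.39), Notch1 (1.00) and Jag2 (-1.61) kept their sign. On FPKM, which does not follow the counts of Notch4, its log2 ratio was 1.37.

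**Figure D4:**
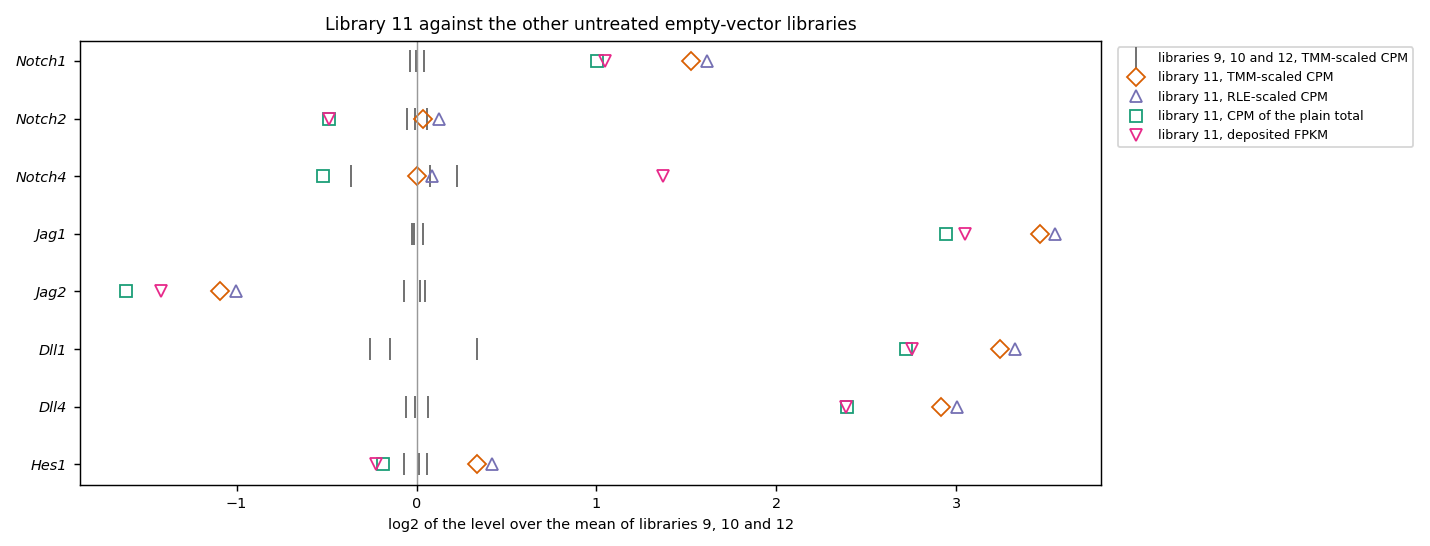
Log2 of the level in library 11 over the mean of libraries 9, 10 and 12, for 8 genes on 4 scales (symbols), with libraries 9, 10 and 12 themselves as ticks. Jag1, Dll1 and Dll4 lie above 2 and Jag2 below -1 on each scale, while Notch2 and Hes1 change sign between the TMM and RLE scales and plain CPM or FPKM. Notch4 runs from -0.52 on plain CPM to 1.37 on FPKM.

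Of 70 other genes of the pathway, sorted by role, 68 were in the table and 57 were tested. In untreated cells 12 were higher and 14 lower with the empty vector, and without library 11 it was 14 and 29. In treated cells 7 were higher and 18 lower, and without library 11 it was 12 and 33. Of all genes tested, 29% were higher and 24.3% lower in untreated cells (37% and 37.3% without library 11). In treated cells the shares were 22.1% and 20% (36.6% and 37.2% without library 11). These shares are the measure to read these counts and those of each list below against. Their median log2 change was -0.08 in untreated and -0.14 in treated cells with 16 libraries, beside 0.03 and -0.01 for all genes. The genes named here are called ones with the smallest adjusted p of their list, and a value not said to be otherwise is a log2 change, empty vector minus lentivirus, from the fit of 16 libraries. A pair of such values is from untreated and then from treated cells. Untreated values can move with library 11. With a library left out Hdac1 ranged from 0.16 to 0.34, and from 0.28 to 0.34 when library 11 was kept. For Fbxw7 the ranges were 0.44 to 0.69 and 0.61 to 0.69. For Aph1c they were -1.93 to -1.28 and -1.49 to -1.28.

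Of the 8 genes of the nuclear activation complex, 3 were higher and 1 lower in untreated cells, and 1 was higher and 2 lower in treated cells (3 and 3, then 2 and 4, without library 11). Rbpj, the DNA-binding partner of the receptors, had 114 ± 3.72 CPM in treated and 116 ± 4.60 CPM in untreated empty-vector libraries without library 11, against 78.0 ± 0.850 and 72.2 ± 1.60 CPM in treated and untreated lentivirus libraries (SD, n = 4, 3, 4 and 4). It was higher by a log2 change of 0.98 in untreated cells (edgeR adjusted p = 2.50e-04; 0.68 without library 11, which held 223 CPM) and 0.55 in treated cells (edgeR adjusted p = 0.0165). The coactivators Maml2 (0.43) and Maml1 (0.19) were higher and Snw1 (-0.24) lower in untreated cells. In treated cells the acetyltransferase gene Ep300 (-0.60) and Snw1 (-0.22) were lower.

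Of the 13 corepressor genes of Rbpj and Hes, 1 was higher and 4 lower in untreated cells, and 0 were higher and 8 lower in treated cells (1 and 7, then 1 and 11, without library 11). Of all genes tested, 24.3% were lower in untreated and 20% in treated cells (37.3% and 37.2% without library 11). Tle4, which encodes a Groucho-family corepressor that Hes proteins recruit, had 0.639 ± 0.104 CPM in treated and 0.728 ± 0.106 CPM in untreated empty-vector libraries without library 11, against 16.5 ± 0.282 and 15.7 ± 1.20 CPM in treated and untreated lentivirus libraries. Library 11 had 17.4 CPM, above each lentivirus library (14.0 to 16.7 CPM). In treated cells the log2 change was -4.68 (edgeR adjusted p = 0.00102). In untreated cells it was -1.71 and not called with 16 libraries (edgeR adjusted p = 0.0900), and -4.43 without library 11 (edgeR adjusted p = 5.70e-18). Cir1, a corepressor that binds Rbpj, was lower by -0.68 in untreated and -0.64 in treated cells. Tle2 (-0.81 and -0.44) and the histone demethylase gene Kdm5a (-0.33 and -0.47) were lower in both, and the deacetylase gene Hdac1 was higher in untreated cells (0.29).

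Genes of receptor maturation and cleavage gave 2 higher and 3 lower of 10 in untreated cells, and 1 higher and 4 lower in treated cells (2 and 6 in both without library 11). Adam17, a metalloprotease that can cut Notch receptors, was higher by 0.44 and 0.38 on the log2 scale. Psen2, a catalytic subunit of gamma-secretase, was lower by log2 changes of -1.30 and -0.97. Aph1b (-2.70 and -2.56) and Aph1c (-1.47 and -1.21), subunits of the same complex, were lower, and their values are uncertain because near-identical copies can share reads. Aph1b was low everywhere, with 0.260 ± 0.0274 CPM in treated empty-vector libraries against 1.55 ± 0.295 CPM in treated lentivirus libraries (SD, n = 4 each).

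Among genes of receptor turnover and inhibitors, 4 of 12 tested were higher and 3 lower in untreated cells, and 4 higher and 1 lower in treated cells (5 and 6, then 5 and 5, without library 11). Nrarp, itself a known Notch target whose product limits the nuclear complex, was higher. It had 7.97 ± 0.607 CPM in treated and 8.20 ± 0.641 CPM in untreated empty-vector libraries without library 11, against 3.57 ± 0.265 and 3.58 ± 0.388 CPM in treated and untreated lentivirus libraries. The log2 changes were 1.29 in untreated cells (edgeR adjusted p = 5.68e-07) and 1.16 in treated cells (edgeR adjusted p = 1.63e-06), so that Nrarp was higher where Hes1 was lower. Dtx4, of the Deltex family of ubiquitin ligases, was lower, with 12.3 ± 1.41 CPM in treated empty-vector libraries against 75.6 ± 2.64 CPM in treated lentivirus libraries (log2 change -2.62, edgeR adjusted p = 1.10e-10; -2.71 in untreated cells). The kinase gene Aak1 (0.89 and 0.42) was higher in both. The ubiquitin ligase gene Fbxw7 (0.62) was named in untreated cells and the kinase gene Cdk8 (0.34) in treated cells. At most 4 genes were named per list and treatment, so a gene named in 1 treatment may differ in the other too. Fbxw7 had 27.9 to 28.7 CPM in treated empty-vector libraries against 21.4 to 23.7 CPM in treated lentivirus libraries.

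Of the other ligands and ligand-like proteins, 4 were tested. Dner, a ligand-like membrane protein, was higher (1.99 and 1.35; 1.31 in untreated cells without library 11). Mfap2, a microfibril protein, had 1 count over the 4 untreated empty-vector libraries against 58 over the lentivirus libraries, a ratio of 0.0180 with a 95% counting interval of 4.48e-04 to 0.104, and in treated cells 1 count against 65. Egfl7 was lower in untreated cells (-0.63, and -0.39 without library 11). In treated cells Egfl7 was not called with 16 libraries. It had 21.0 to 23.5 CPM in treated empty-vector libraries against 28.8 to 29.3 CPM in treated lentivirus libraries. Glycosylation of receptors had Poglut1, an O-glucosyltransferase, lower (-0.50 and -0.37). Ligand endocytosis had Epn2 higher in untreated cells (0.36) and the ubiquitin ligase gene Mib1 lower in treated cells (-0.41). Of 7 further Hes and Hey genes only Hes6 was tested. It was not called with 16 libraries and was lower without library 11 (-0.32 and -0.16). H2O2 brought 0 calls among the 57 genes in either fit.

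**Figure D5:**
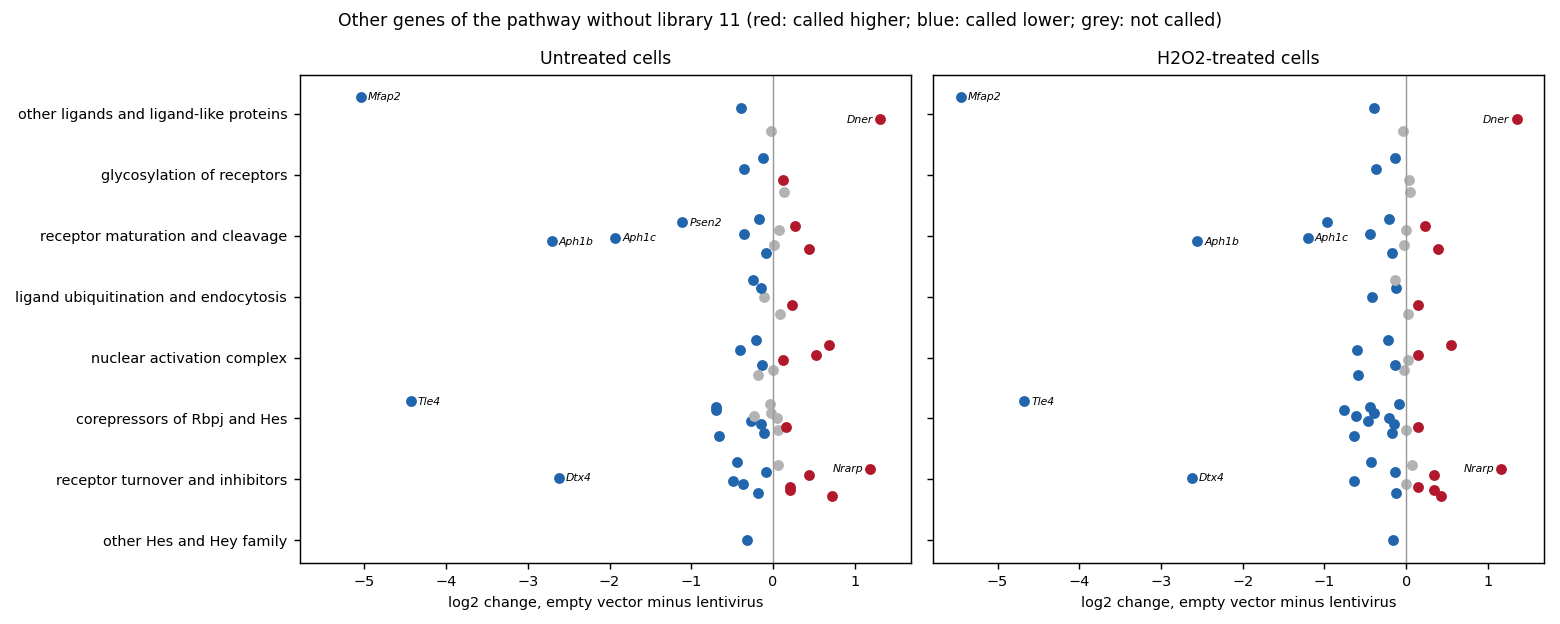
Log2 change between the vectors (empty vector minus lentivirus) without library 11 for the other genes of the pathway by role, in untreated (left) and H2O2-treated cells (right). Red points were called higher, blue lower and grey not called, and genes past 1 in size are named. Dner and Nrarp lie above 1, while Mfap2, Tle4, Aph1b and Dtx4 lie below -2 in both panels.

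For the 4 members with the highest level per length, the genes with the most similar profile were taken by Pearson correlation of log2 CPM over the 15 libraries without library 11, among 10493 genes. The libraries share their groups, so the values describe the pattern only. Jag2 was most like Kdm6b (0.960), Col16a1 (0.942) and Cep170b (0.926). Hes1, whose profile separates the vectors, was most like Pik3ip1, Cited2 and Fzd8 (each 0.992). Notch2 was most like Srrm2 (0.973), Lrp1 (0.964) and Ankhd1 (0.963), and Notch1 was most like Kmt2a (0.976), Hectd4 (0.972) and Pkd1 (0.971).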

How the data were processed

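RNA of 16 libraries was extracted with a Qiagen RNeasy kit and sequenced by Illumina, per the labels' protocols. The authors deposited whole-number counts for 25745 genes and FPKM for 25372, made with cutadapt, STAR and RSEM on mm10, per the submitters' processing notes. Their versions, the annotation used and the strandedness of the kit were not given in the sources used here. RSEM estimates counts, which the authors may have rounded. Without known strand, overlapping genes cannot be told apart. Opposite-strand genes in the table held 363 and 15 counts beside 71932 of Notch1, 34 beside 1494 of Dll4 and 13 beside 1327 of Dll1, and those at Notch3 and Notch4 were not analysed here. All symbols matched GENCODE vM21, used for positions.

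Groups came from the titles. The main test was edgeR 4.0.16 (R 4.3.3), a robust quasi-likelihood fit of all 16 libraries with TMM scaling. The filterByExpr filter kept 14445 genes, with Benjamini-Hochberg adjustment over all of them. The biological coefficient of variation came to 23.1% with and 5.28% without library 11. Alternatives were each library left out, RLE scaling, DESeq2 1.42.0, no filter, the compared groups alone and limma 3.58.1 voom with library quality weights. Scales for library 11 were added after seeing the data. Counting intervals cover counting error only. The members, gene lists and tests were chosen with earlier results of these data known. All members were named, and of other lists up to 4 called genes by smallest adjusted p. Values of genes outside that rule, namely Hes6, Epcam, Cdh1, Cldn3, Cldn4, Krt8, Cdh5, Pecam1, Kdr, Tek, Cd68, Ptprc, Trp63 and the fibroblast markers, and the untreated values of Tle4, were picked after seeing the data. Figures used matplotlib 3.10.9.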

Additional observations from a re-analysis of the deposited data

Results flagged for a closer look

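In 40 groups of 4 libraries (10 genes in 4 groups), 8 single libraries stood far from the other 3 of their group by Dixon's criterion on TMM-scaled CPM, where chance flags about 1 in 20 groups. Library 11 accounts for 6 of them, with Notch1 at 226 CPM, Jag1 at 159.5 CPM, Jag2 at 35.4 CPM, Dll1 at 7.80 CPM, Dll4 at 14.5 CPM and Hey1 at 0.881 CPM. Jag2 was the only one of these in which library 11 was the lowest of its group. The other 2 were in library 8, a treated lentivirus library, with Jag2 at 82.5 CPM and Hey1 at 0.0318 CPM, the second of which rests on 2 counts beside 0 in the rest of its group.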

How the results depend on the processing

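No paired analysis was possible because the groups share no library number. In untreated cells the 4 members higher became 2 with the compared groups alone and 2 with DESeq2, and ranged from 2 to 5 with a library left out. The 1 lower became 2 with voom and ranged from 1 to 2. In treated cells the 2 higher became 1 with DESeq2, and the 1 lower became 4 with the compared groups alone and 4 with voom, and ranged from 1 to 4 with a library left out. DESeq2 gave Jag1, Dll1 and Dll4 no adjusted p in these comparisons. The calls over all genes moved with these settings too. In untreated cells the main fit called 4184 higher and 3516 lower of 14445. The compared groups alone gave 2430 and 1996 of 13843, and voom 5410 and 5436 of 14445. In treated cells the main fit called 3189 higher and 2890 lower. The compared groups alone gave 5183 and 5308 of 13963 there, and voom 5414 and 5502. The left-out libraries that moved a count by over 1.5 times were 1, 3 and 11.

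Signs turned as follows on the log2 scale, and the cause was not tested. In untreated cells Jag2 was 0.0023 and Dll1 -0.85 with voom, and with a library left out Jag2 ranged from -0.28 to 0.018 and Dll1 from -0.77 to 1.16. In treated cells Notch2 was 0.0032 with voom and ranged from -0.088 to 0.037. For H2O2 in empty-vector cells Notch4 was 0.020 with no filter, and voom gave Dll1 0.31, Dll4 0.058 and Hes1 0.034. With a library left out the ranges were -0.11 to 0.082 for Notch4, -0.014 to 0.29 for Jag2, -1.77 to 0.17 for Dll1, -1.57 to 0.091 for Dll4 and -0.13 to 0.010 for Hes1, and -0.011 to 0.049 for Hes1 in lentivirus cells. For the difference of responses voom gave Jag2 -0.067, Dll1 0.13 and Hes1 0.022, and Jag2 ranged from -0.11 to 0.19. In library 11 Notch2 was at -0.48 on plain CPM and -0.48 on FPKM, Hes1 at -0.19 and -0.22, and Notch4 at -0.52 on plain CPM.

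Calls of single members also changed. With the compared groups alone Notch2 and Jag1 lost their untreated call (adjusted p = 0.0780 and 0.146), and Jag1 with voom. Notch1, Jag1 and Dll1 gained a treated call with the compared groups alone and with voom. The calls of Notch4, Dll4 and Hes1 between the vectors held with each library left out, RLE scaling, no filter, the compared groups alone and voom. Notch3, Hey1, Dll1 and the lentivirus levels of Dll4 and Notch4 are limited by depth.

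The other genes of the pathway called in untreated cells were 7 higher and 9 lower with the compared groups alone, and 27 lower with voom. In treated cells they were 11 higher and 32 lower with the compared groups alone, and 12 and 32 with voom. The calls over all genes given above for these settings are the measure to read them against.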
